A study of Mus musculus with 384 samples.

Results

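The AP-1 transcription factor genes examined here are Fos, Fosb, Fosl2, Jun, Junb, Jund, Atf3 and Batf, 8 of the 23420 genes in the table, chosen by name as members of the Fos, Jun, Atf and Batf families. They were followed in 326 single cells sorted from the spinal cords of mice with the genotype Optn KO, a loss of the autophagy receptor optineurin. The tissue was digested with Accutase and cleared of myelin, stained for CD45, CD11b and CX3CR1, and sorted 1 cell at a time into plates for SmartSeq2, a full-length cDNA method. All cells carry this 1 genotype label, and the comparisons are between classes of cells within it, not between genotypes. Neutrophils were defined as cells in which S100a8 and S100a9, subunits of the neutrophil protein calprotectin, summed to at least 10000 TPM (a transcript's length-scaled share of a cell's total, scaled to 1000000). This held for 286 cells, 131 in replicate 1 (plates 1 and 2) and 155 in replicate 2 (plates 3 and 4), and left 40 other cells, 23 and 17. The median sum of the neutrophils was 146091 TPM, the highest sum outside was 4019 TPM and the lowest inside was 12512 TPM. The series title calls the sorted cells microglia, but among the 326 cells Sall1 was listed at 0 in all, P2ry12 was above 0 in 2 and Tmem119 in 3. Monocyte markers summed to a mean of 8689 and 8414 TPM in the other cells of replicates 1 and 2, against 2210 and 1880 TPM in the neutrophils. The number of genes with TPM above 0, used in place of depth, had a median of 1604.5 in neutrophils and 3027.5 in the other cells. Optn was listed at 0 in all 326 cells, which allows a share of up to 0.920% of cells with a value above 0.

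AP-1 is a dimer of basic leucine zipper proteins. Fos proteins (Fos, Fosb, Fosl2) must pair with a Jun protein (Jun, Junb, Jund) to bind DNA, whereas Jun proteins can also pair with each other, and Atf3 and Batf join them as partners that often dampen or redirect transcription. Fos, Fosb, Jun, Junb and Atf3 are immediate early genes, switched on within minutes by MAP kinase signalling without new protein synthesis, and tissue digestion is known to induce them. In neutrophils AP-1 acts beside NF-kB and C/EBP factors on cytokine genes such as Il1b, and Junb is also known as a brake on granulocyte expansion.

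The upstream sequence of 4 members is shown because Fos and Junb carried most of the AP-1 transcript, Atf3 was the member with the most uneven spread over the neutrophils, and Jun was lower in neutrophils than in the other cells. The size of the Jun difference came mostly from replicate 1, and its call was lost in several other settings given below. Each run is the 150 bases before the RefSeq start of the gene (GRCm38.p6), 5′ to 3′ on the gene's strand. For Atf3 this start lies inside the gene's GENCODE span of 191170296 to 191218039 on the minus strand. Its run is therefore not the stretch before the outermost start of that span. Capitals mark the TATA box letters TATAAA, the short cyclic AMP motif TGACGT, which reads ACGTCA where it lies on the other strand, and the variant TGACATCA.
Fos (chr12:85473740-85473889, plus strand): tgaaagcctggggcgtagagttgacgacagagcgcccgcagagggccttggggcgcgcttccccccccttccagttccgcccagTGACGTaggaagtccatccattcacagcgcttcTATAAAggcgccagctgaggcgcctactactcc
Junb (chr8:84978749-84978898, minus strand): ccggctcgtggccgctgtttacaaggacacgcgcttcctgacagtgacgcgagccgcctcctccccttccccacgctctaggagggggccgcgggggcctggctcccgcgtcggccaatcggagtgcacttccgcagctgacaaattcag
Atf3 (chr1:191183334-191183483, minus strand): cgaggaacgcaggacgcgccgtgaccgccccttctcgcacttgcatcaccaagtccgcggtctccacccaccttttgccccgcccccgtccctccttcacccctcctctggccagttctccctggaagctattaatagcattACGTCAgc
Jun (chr4:95052223-95052372, minus strand): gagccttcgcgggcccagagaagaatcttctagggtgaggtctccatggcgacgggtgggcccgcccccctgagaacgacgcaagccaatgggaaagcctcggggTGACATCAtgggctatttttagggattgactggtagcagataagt
All 8 members were matched in the RefSeq promoter table. The RefSeq start did not always meet the GENCODE start. The Jund window ended at 70697738, well before the GENCODE start of 70698949 on the plus strand. The Fosl2 window ended at 32136471, inside the GENCODE span that starts at 32135801 on the plus strand. The searches below hold for the RefSeq windows only. In the 250 bases before the start, on both strands, no member held the AP-1 element TGANTCA, N being any base, which 6.75% of the 32851 promoters in the table held, nor the full cyclic AMP element TGACGTCA (1.55%), nor a serum response CArG box (1.47%). TATAAA lay 33 to 28 bases before the start of Fos (7.59% of all promoters). The shorter TGACGT, which the full element contains, lay 66 to 61 bases before the start of Fos, 8 to 3 bases before that of Atf3 and 98 to 93 bases before that of Batf (6.47% of all promoters). TGACATCA lay 45 to 38 bases before the start of Jun (2.93% of all promoters). The last 2 motifs were added after the windows had been read. A match describes the letters only. Only these 250 bases were searched, so an element further upstream, a CArG box included, would not have been found.

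Fos and Junb were present in nearly every neutrophil and were among its most abundant transcripts, and the other 6 members were far lower. Junb, the most abundant Jun family transcript here (chromosome 8 from 84974484 to 84978718, minus strand, GRCm38, GENCODE; 1 exon), was above 0 in 93.7% ± 0.244 (SD, n = 2 replicates) of neutrophils, with a mean of 5576 ± 436 TPM. Its mean was 5268 TPM in replicate 1 and 5884 TPM in replicate 2, and the plates ran from 4899 to 6857 TPM. Fos (chromosome 12 from 85473890 to 85477273, plus strand; 4 exons) was above 0 in 96.2% ± 0.0383 of neutrophils, with means of 4574 and 5055 TPM in replicates 1 and 2. By mean TPM in neutrophils, Junb ranked 20 and Fos 24 among the 13069 genes above 0 in any of them. Both transcripts together made up 94.9% and 95.9% of the summed TPM of the 8 members in the 2 replicates. The replicates were close for both genes, and their ranges over cells were wide: among cells above 0 the middle of the distribution ran from 1459 to 8124 TPM for Junb and from 1605 to 6236 TPM for Fos (interquartile range). Fos and Junb were above 0 together in 262 of 286 neutrophils, and 4 neutrophils had none of the 8 members.

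Fosl2, a Fos family member known for a slower and longer induction than Fos (chromosome 5 from 32135801 to 32157842, plus strand), was frequent at a lower level. It was above 0 in 74.8% and 78.1% of neutrophils of replicates 1 and 2, with means of 144 and 174 TPM. Fosb, the closest relative of Fos in the list (chromosome 7 from 19302696 to 19310051, minus strand), was above 0 in 25.2% and 25.8%, with means of 22.4 and 43.0 TPM. TPM is scaled by transcript length, so levels can be set side by side: the mean of Fos was 31.7 and 29.1 times that of Fosl2 in the 2 replicates and 204 and 118 times that of Fosb.

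The remaining Jun genes were rare in neutrophils. Jun, the founding Jun family gene (chromosome 4 from 95049034 to 95052222, minus strand; 1 exon), was above 0 in 9.92% and 10.3% of neutrophils, with means of 24.0 and 30.2 TPM. The mean of Junb was 220 and 195 times that of Jun. Jund (chromosome 8 from 70698949 to 70700616, plus strand; 1 exon) was above 0 in 12.98% and 10.3% with means of 3.92 and 2.98 TPM, and the median of its 33 positive neutrophils was only 12.99 TPM. At this level a value above 0 says little about the amount of transcript. The annotation behind the values is not given in the sources used here, so whether the gene model or the assignment of reads lowers Jund was not tested.

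Atf3 and Batf were also rare, but where they were found their level was high. Atf3, a stress-induced factor that often restrains inflammatory genes (chromosome 1 from 191170296 to 191218039, minus strand), was above 0 in 34 of 286 neutrophils, 13.7% in replicate 1 and 10.3% in replicate 2, and 33 of those 34 cells had at least 100 TPM. The median of the positive cells was 1481 TPM. Batf, a partner of Jun proteins at composite sites with IRF factors (chromosome 12 from 85686669 to 85709087, plus strand), was above 0 in 15 neutrophils, 7.63% in replicate 1 and 3.23% in replicate 2, with a median of 651 TPM in the positive cells. The mean TPM of both genes thus averages a few high cells with many at 0. Of the 27 other AP-1 and related leucine zipper genes listed, Fosl1, a further Fos family gene, was above 0 in 52 of 286 neutrophils and in 1 of the 40 other cells.

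**Figure D1:**
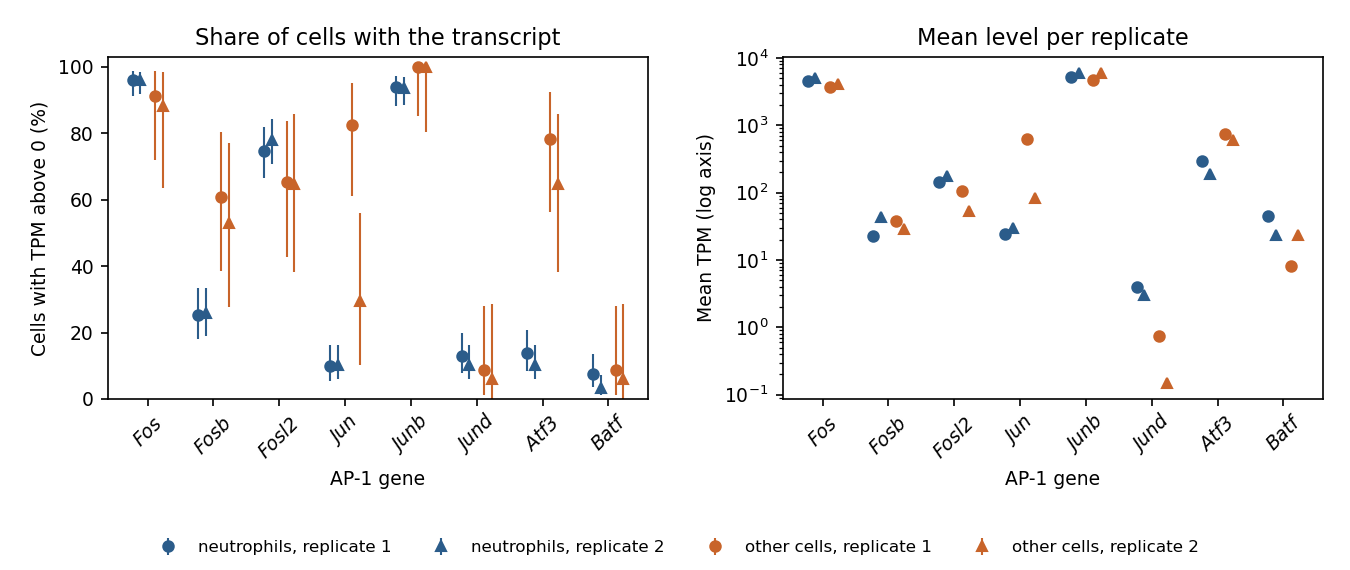
Left, share of cells with TPM above 0 for each AP-1 gene with exact 95% binomial intervals (counting error only); right, mean TPM per replicate on a log axis. Blue marks neutrophils and orange the other cells, circles replicate 1 and triangles replicate 2. Fos and Junb stand near the top in both kinds of cell, and Jun in the other cells separates the replicates, 82.6% against 29.4%.

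To follow the AP-1 genes along the granule programme, the neutrophils of each plate were ranked by a specific granule score (Ltf, Camp, Ngp, Lcn2, Cd177, Chi3l3, Ifitm6 and Hp, mostly proteins of the specific granules, which are made before a neutrophil leaves the marrow), corrected for genes detected. The lowest of 3 classes of near equal size, or tertiles (43 and 51 cells in replicates 1 and 2) was compared with the highest tertile (43 and 51 cells). Fos, Junb and Fosl2 were higher in granule-low neutrophils, against a background of 291 higher genes of 3955 tested (7.36%) and 86 lower genes (2.17%), 9.53% in either direction (limma, adjusted p under 0.05 after Benjamini-Hochberg). Fosb and Atf3 passed the filter on low values only through the granule-low cells, so their direction was fixed by the filter and their values are given as a description with no test. Jun, Jund and Batf did not pass it.

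Junb averaged 9213 and 11410 TPM in the granule-low cells of replicates 1 and 2, 3771 and 3963 TPM in the middle tertile, and 2891 and 2356 TPM in the granule-high cells. The difference between the low and the high tertile was 1.97 on the log2(mean TPM + 1) scale (SE 0.15, limma adjusted p = 0.00035). Fos averaged 7699 and 8611 TPM in granule-low, 3492 and 3355 TPM in middle, and 2582 and 3266 TPM in granule-high cells, a difference of 1.49 (SE 0.11, limma adjusted p = 0.000288). For both Junb and Fos most of the step lay between the low and the middle tertile. Fosl2 averaged 209 and 319 TPM in granule-low against 94.4 and 59.5 TPM in granule-high cells, a difference of 1.77 (SE 0.45, limma adjusted p = 0.0492). Fosl2 fell in level more than in frequency, since it was above 0 in 83.7% and 84.3% of granule-low and still in 72.1% and 68.6% of granule-high cells.

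Fosb and Atf3 were concentrated in the granule-low cells. Fosb was above 0 in 47 of 94 granule-low, 18 of 98 middle and 8 of 94 granule-high cells, and averaged 52.4 and 92.2 TPM in granule-low against 4.52 and 3.53 TPM in granule-high cells. Atf3 was above 0 in 31 of 94 granule-low cells and 3 of 98 middle cells, and was listed at 0 in all 94 granule-high cells, which allows a share of up to 3.19%. Its granule-low means were 877 and 556 TPM, and no fold is given against cells at 0. The Atf3-positive cells therefore lay almost entirely in 1 tertile of the neutrophils, and the granule-high cells of all 4 plates were without Atf3. The 3 members that did not enter showed no such split or too few cells: Jun was above 0 in 10, 12 and 7 cells of the low, middle and high tertiles, Jund in 17, 6 and 10, and Batf in 9, 5 and 1.

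The direction was the same on 4 of 4 plates for Fos, Junb and Fosl2. Fits on the 2 plates of 1 replicate kept fewer calls. Without replicate 1, Junb passed (2.25, limma adjusted p = 0.0307), and Fos (1.36, 0.0584) and Fosl2 (2.51, 0.127) did not. Without replicate 2, Fosl2 missed the threshold (1.06, limma adjusted p = 0.348). Fosl2 also missed it among cells with at least 1000 genes detected (1.44, limma adjusted p = 0.0505). The filter on low values also mattered: with none, 12388 genes entered, the adjusted p of Fos, Junb, Fosl2, Fosb and Atf3 ran from 0.126 to 0.444, and no gene of the table passed although 1109 had an unadjusted p under 0.05. Specific granule genes, S100a8, S100a9 and Rn45s took 17.2% and 16.1% of TPM in granule-low and 37.0% and 36.7% in granule-high cells, so TPM was also rescaled without them, a setting chosen once the data had been seen. The rescaling moved the median of all genes tested from 0.34 to -0.04 and the split of calls from 291 higher and 86 lower to 231 and 216. Junb (1.62, limma adjusted p = 1.13e-05) and Fos (1.08, 1.35e-06) stayed past the threshold, and Fosl2 did not (1.37, 0.0561). Granule-low cells had fewer genes detected (median 1418 and 1426, against 1881 and 1660), and more of them had at least 5 proliferation genes above 0 (7 and 5 cells, against 1 and 1). Without those proliferating cells Fos (1.18), Junb (1.80) and Fosl2 (1.46) still passed.

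**Figure D2:**
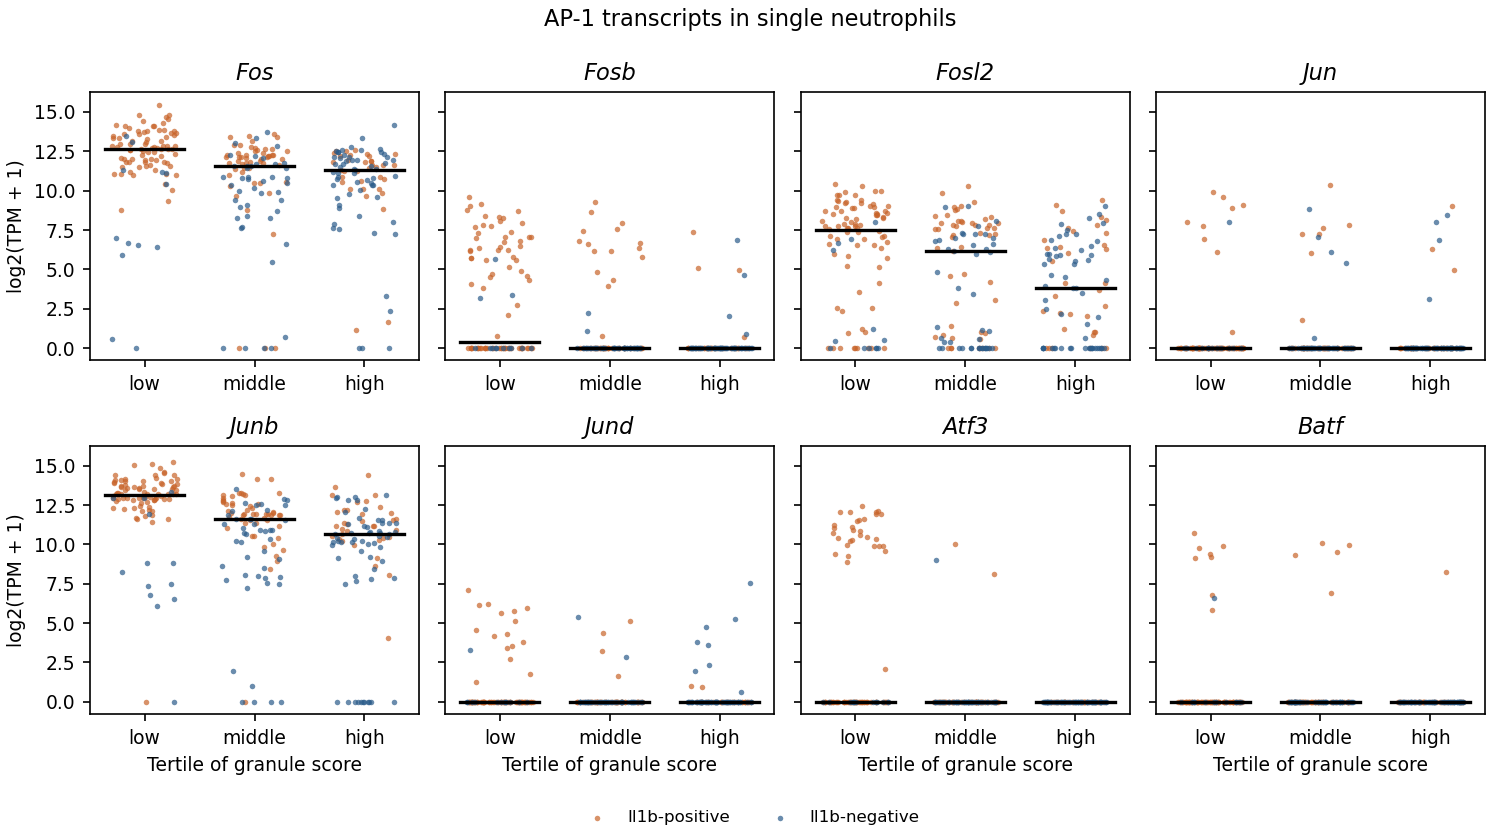
Each point is 1 neutrophil, placed by its tertile of the granule score (x axis) and its log2(TPM + 1) (y axis), orange where Il1b was above 0 and blue where it was 0; black bars are medians. Junb and Fos shift downwards from the low to the high tertile, while positive Atf3 cells stand in the low tertile, 31 of 34, and nearly all are orange.

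Il1b, which encodes the cytokine interleukin-1 beta, was above 0 in 169 of 286 neutrophils. Fos, Junb and Fosl2 were higher in Il1b-positive neutrophils (77 and 92 cells in replicates 1 and 2) than in Il1b-negative ones (54 and 63 cells), in a comparison with 496 of 4052 genes higher (12.2%) and 172 lower (4.24%), 16.5% in either direction. The same neutrophils entered the granule comparison, and 7 of 8 specific granule genes were lower in Il1b-positive cells, so the 2 comparisons are not independent of each other. Junb averaged 7440 and 8502 TPM in Il1b-positive against 2172 and 2062 TPM in Il1b-negative cells, a difference of 1.91 (SE 0.090, limma adjusted p = 2.52e-11). Fos averaged 6161 and 6564 TPM against 2312 and 2852 TPM, a difference of 1.31 (SE 0.088, limma adjusted p = 2.63e-09). For both genes the lower replicate of the positive class lay above the higher replicate of the negative class. The share of all genes tested for which this holds was not counted. Fosl2 averaged 198 and 254 TPM against 67.4 and 56.2 TPM (1.85, SE 0.34, limma adjusted p = 0.000685). Fosb averaged 37.6 and 70.6 TPM against 0.774 and 2.78 TPM, and was above 0 in 64 of 169 Il1b-positive and 9 of 117 Il1b-negative cells. Here too Fosb passed the filter only through the positive class, so these values are a description with no test.

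Atf3 was above 0 in 33 of 169 Il1b-positive cells and 1 of 117 Il1b-negative cells, with means of 490 and 323 TPM against 9.61 and 0 TPM. It passed the filter on low values only through the positive class, and its values too are given with no test. Batf, not tested, was above 0 in 14 of 169 and 1 of 117 cells. Jun averaged 35.5 and 37.0 TPM against 7.57 and 20.4 TPM, and was above 0 in 19 of 169 and 10 of 117 cells. Only the positive class reached the 10% of cells that the filter asks for, so the Jun values too are given with no test. Jund, also not tested, averaged 5.45 and 2.40 TPM against 1.74 and 3.81 TPM, so that the replicates differed in direction.

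Il1b-positive cells had fewer genes detected (median 1518 and 1445.5) than Il1b-negative cells (1936 and 1979). At least 5 proliferation genes were above 0 in 5 and 1 Il1b-positive cells and in 9 and 9 Il1b-negative cells. Without those proliferating cells Fos, Junb and Fosl2 were still called. When cells were averaged over 3 equally weighted strata of genes detected, the Fos difference fell from 1.31 to 0.62 (limma adjusted p = 0.0146), while Junb stood at 1.45 (8.54e-07) and Fosl2 at 1.62 (0.0219). Without replicate 2 Fosl2 missed the threshold (1.54, limma adjusted p = 0.103), and with no filter on low values no member passed (0.138 to 0.385). Rescaling moved the median of all genes tested from 0.21 to -0.11 and the split of calls to 286 higher and 324 lower, with Junb at 1.62, Fos at 0.99 and Fosl2 at 1.54, all past the threshold.

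**Figure D3:**
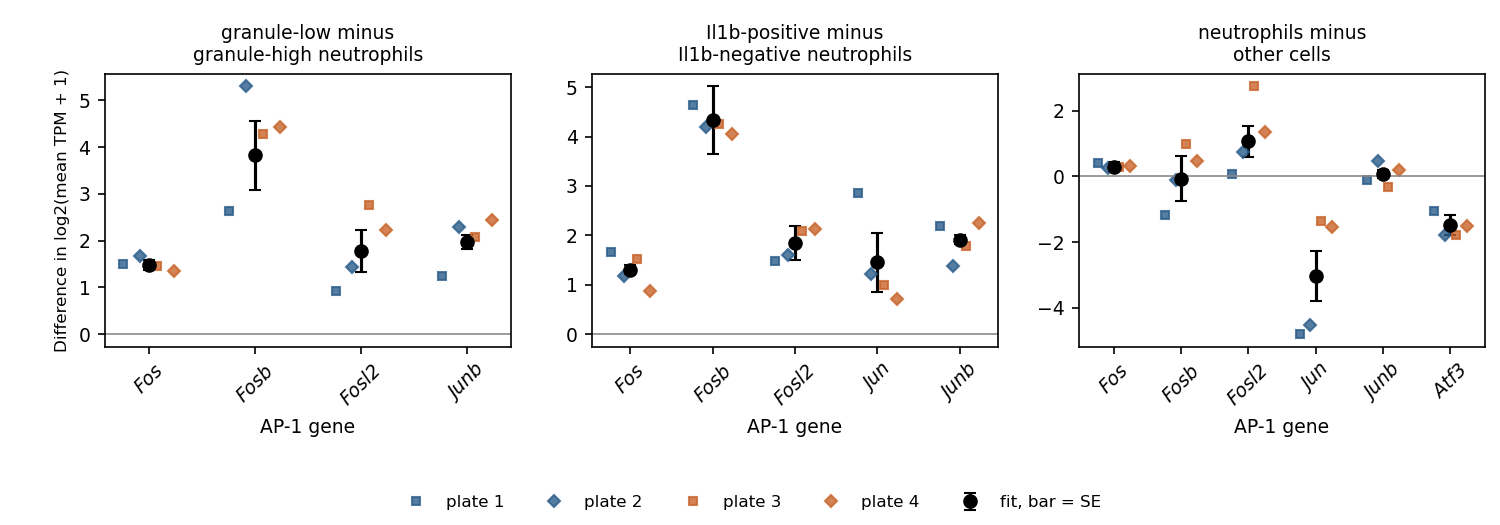
Black points are the fitted differences in log2(mean TPM + 1) of the AP-1 genes tested in each comparison, with bars for the SE; squares and diamonds are the 4 plates, blue for replicate 1 and orange for replicate 2. Atf3 is left out of the first 2 panels, where a class was listed at 0 in at least 1 replicate. Fosb in those panels and Jun in the Il1b panel are descriptions, since they passed the filter only through 1 class. All plates lie above 0 in the first 2 panels, and in the last panel Jun is lower on plates 1 and 2 than on plates 3 and 4.

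Splitting the tertiles by Il1b showed where the high levels sat. In granule-low, Il1b-positive cells (37 and 44 cells) Junb averaged 10420 and 12747 TPM, against 1765 and 3009 TPM in granule-low, Il1b-negative cells (6 and 7 cells). In Il1b-negative cells the mean of Junb lay between 1765 and 3009 TPM in all 3 tertiles and both replicates. A few cells carried the granule-low mean: over both replicates the median of Junb in Il1b-negative cells was 301 TPM in the low, 1646 TPM in the middle and 1176 TPM in the high tertile. The medians of Fos in the same cells were 125, 1460 and 2264 TPM, so the typical Il1b-negative cell of the low tertile had less of both. In Il1b-positive cells the mean of Junb was 4574 and 5843 TPM in the middle tertile and 4863 and 2887 TPM in the granule-high tertile. Fos followed the same layout, with 8636 and 9588 TPM in granule-low, Il1b-positive cells, 2564 to 4669 TPM in the other Il1b-positive tertiles and 1883 to 3720 TPM in Il1b-negative cells. In the granule-high cells of replicate 2 the order was the other way, since Fos was higher in Il1b-negative (3720 TPM) than in Il1b-positive cells (2564 TPM). Fos and Junb were thus highest in 1 of the 6 classes, in both replicates. Fosl2 averaged 236 and 364 TPM in granule-low, Il1b-positive cells and 42.3 to 73.9 TPM in the Il1b-negative classes. Fosb averaged 60.7 and 106 TPM in granule-low, Il1b-positive cells and at most 8.42 TPM in the Il1b-negative classes. The 13 granule-low, Il1b-negative cells are few and had many genes detected (median 3420 against 1384 in the 81 granule-low, Il1b-positive cells). The low tertile held 7 and 5 proliferating cells, and how many of them were among these 13 was not counted. Whether the effect of 1 split differs between the classes of the other was not tested.

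**Figure D4:**
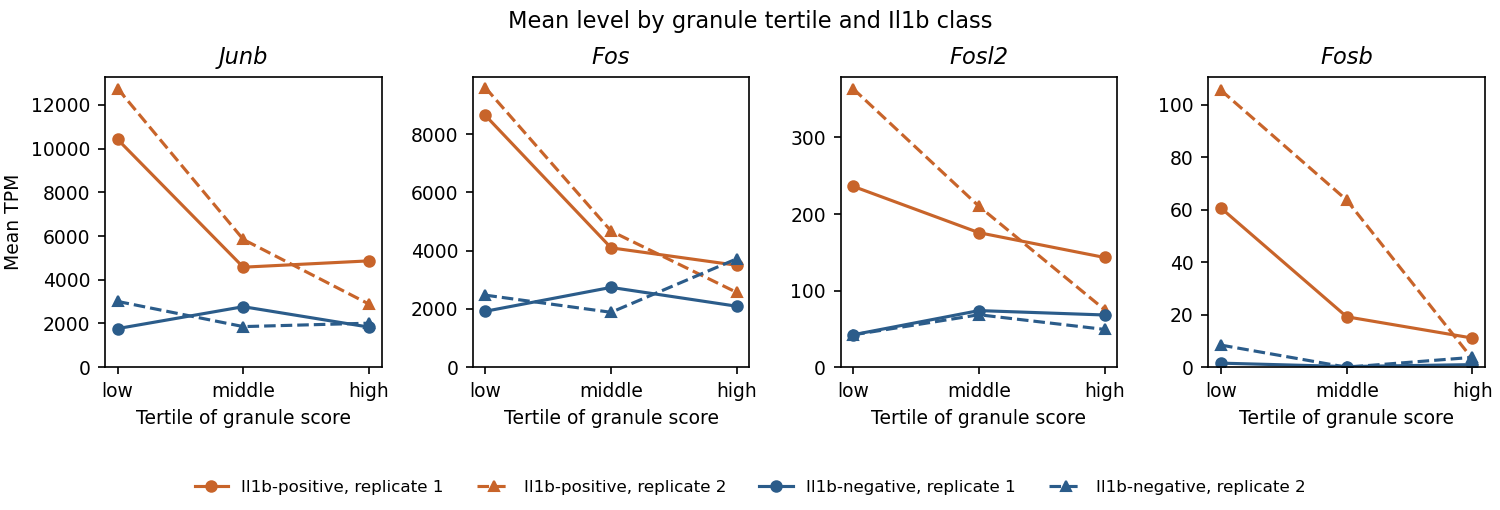
Mean TPM (y axes, from 0) of Junb, Fos, Fosl2 and Fosb by tertile of the granule score, orange for Il1b-positive and blue for Il1b-negative neutrophils, solid lines for replicate 1 and dashed for replicate 2. The orange lines fall from the low tertile to the others and the blue lines stay low, Junb between 1765 and 3009 TPM, except that Fos in replicate 2 is higher in blue (3720 TPM) than in orange (2564 TPM) in the high tertile.

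All 31 Atf3-positive granule-low cells were Il1b-positive, 17 in replicate 1 and 14 in replicate 2. Within granule-low, Il1b-positive cells, those with Atf3 averaged 13209 and 18115 TPM of Junb in the 2 replicates, against 8050 and 10242 TPM in the 20 and 30 cells without Atf3. Fos averaged 9833 and 13912 TPM with Atf3 and 7619 and 7571 TPM without it. Both genes were higher beside Atf3 in each replicate, as a description of cells chosen by their Atf3 value. Il1b itself averaged 21430 and 29238 TPM with Atf3 and 12780 and 15769 TPM without it. Fosb averaged 89.3 and 133 TPM with Atf3 and 36.3 and 92.6 TPM without it, but was about as frequent in both sets, 52.9% and 57.1% against 55% and 53.3%, with similar numbers of genes detected (median 1393 and 1323.5 against 1436 and 1430). Fosl2 did not differ in a fixed direction: its mean was 215 against 254 TPM in replicate 1 and 491 against 304 TPM in replicate 2.

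Across all neutrophils of a plate, Junb was the member most closely tied to the others and to both axes. Spearman's rho was computed within each of the 4 plates (64 to 78 cells) on ranks corrected for genes detected, and is given as a mean over plates. It is a description, since cells of a plate share their library preparation and the sum of TPM is fixed. Junb reached -0.62 with the specific granule score (plates -0.51 to -0.71) and 0.58 with Il1b (0.43 to 0.68). Among the members, Junb was linked with Fos at 0.48, with Fosb at 0.41, with Fosl2 at 0.39 and with Atf3 at 0.34. Fos reached -0.38 with the granule score and 0.37 with Il1b, Fosb -0.42 and 0.37, Fosl2 -0.32 and 0.35, and Atf3 -0.45 and 0.39. These 5 genes had a negative rho with the granule score and a positive rho with Il1b on every plate. Batf had the same signs on every plate, with a weaker mean of -0.18 with the granule score. The links among the Fos genes were looser than those with Junb: Fos with Fosb 0.32, Fos with Fosl2 0.22 and Fosb with Fosl2 0.07. Jun, Jund and Batf had low values, with mean rho between -0.05 and 0.18 with every other member, and Jun with Junb at 0.01. Most neutrophils were tied at 0 for these genes, which limits rho. By counts, Fosb was above 0 in 11 of 29 Jun-positive neutrophils against 62 of the 257 others. It was above 0 in 16 of 33 Jund-positive cells against 57 of 253, and in 8 of 15 Batf-positive cells against 65 of 271. Batf reached 0.23 with Il1b. Without the correction for genes detected the values were larger for the frequent members, Junb at -0.74 and 0.70 and Fos at -0.58 and 0.54.

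**Figure D5:**
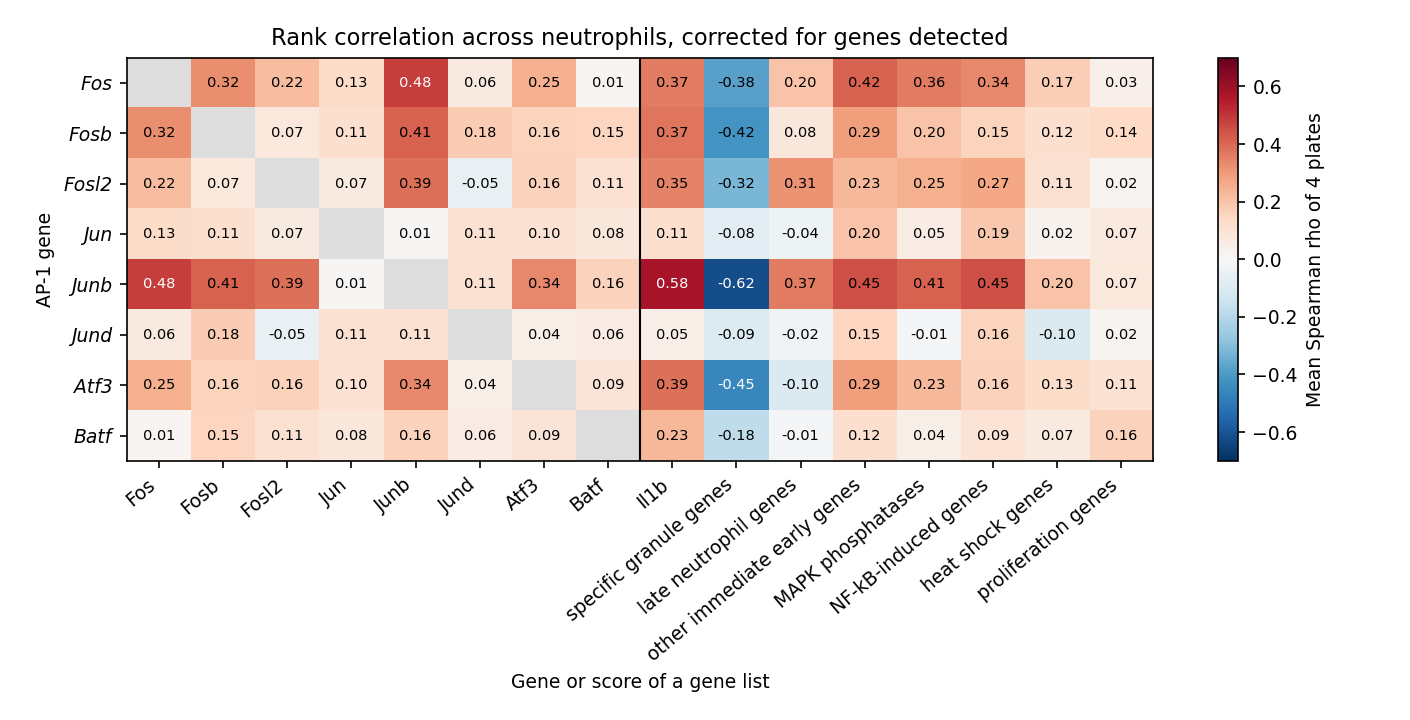
Mean over 4 plates of Spearman's rho across neutrophils, on ranks corrected for genes detected, between each AP-1 gene (rows) and the other members, Il1b and gene list scores (columns); red is positive, blue negative, grey the gene itself. The Junb row holds the strongest values, -0.62 with specific granule genes and 0.58 with Il1b, and the Jun, Jund and Batf rows are pale.

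The genes most like the members were sought among 2780 genes above 0 in at least 20% of neutrophils. A score of 12 late neutrophil genes, Csf3r among them, had a mean rho of 0.37 with Junb, 0.31 with Fosl2 and 0.20 with Fos. With Fosb it was 0.08, with Atf3 -0.10, with Jun -0.04, with Jund -0.02 and with Batf -0.009. The single genes most like each member were of several kinds. For Junb they were Srgn (0.67), Dusp1 (0.66), Csf3r (0.64), H2-D1 (0.58) and Btg2 (0.58). Dusp1, the phosphatase that switches MAP kinases off, also led for Fos (0.53), followed by Junb, Csf3r, Btg2 and Zfp36 (0.48 to 0.44), and for Atf3 (0.39), followed by Il1b, Csf3r, Gm2a and LOC100038947 (0.39 to 0.37). For Fosb they were Junb, Dusp1, Sirpb1b, Srgn and LOC100038947 (0.41 to 0.38). For Fosl2 they were Mxd1 (0.43), a Myc antagonist, then Srgn, Cytip, Junb and Dusp1 (0.41 to 0.37). Dusp1 was in the first 5 for Fos, Fosb, Fosl2, Junb and Atf3. For Jun (Rpl5, Nlrp3, Ppp1r16b, Zfp36 and Ccrl2, 0.25 to 0.21) and Batf (A130077B15Rik, Il1b, A730017L22Rik, Pla2g7 and Snap23, 0.23 to 0.22) the values were weak.

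Other genes of the pathway were read in the same 2 comparisons, from lists chosen with earlier results of these data known. The filter on low values took both classes together. Genes above 0 in few neutrophils, such as Egr1 (47 of 286) and Ddit3 (40 of 286), can therefore enter through 1 class alone. This was not checked for the lists, so their counts and differences are a description. Among all genes tested, 7.36% were higher and 2.17% lower in granule-low cells, and 12.2% were higher and 4.24% lower in Il1b-positive cells. Of 9 other immediate early genes tested, 6 were higher in granule-low cells and none lower, with Egr1 at 6.24, Btg2 at 2.16, Zfp36 at 1.85 and Gadd45b at 3.02; the list's median was 1.80 against 0.34 for all genes tested. In Il1b-positive cells 8 of 9 were higher (median 1.39 against 0.21). Of the 2 MAP kinase phosphatases tested, Dusp1 was higher in granule-low cells (3.05) and Dusp6 was not called (1.30); in Il1b-positive cells both were higher (2.60 and 1.55). NF-kB-induced genes were higher for 7 of 12 in granule-low cells, among them Cxcl2 (2.21), Il1rn (1.87), Nlrp3 (3.05) and Nfkbia (1.08), and for 7 of 9 in Il1b-positive cells. The kinases and nuclear factors upstream of AP-1 did not move together: of 15 tested none was higher and Mapk13 was lower (-1.36) in granule-low cells, and Map3k3 (3.31) and Map2k3 (1.01) were higher in Il1b-positive cells. Of 15 other leucine zipper genes, the stress factors Ddit3 (3.38) and Nfe2l2 (1.77) were higher in granule-low cells, and Fosl1 was not called (-1.78, limma adjusted p = 0.0868), with 15.4 and 31.2 TPM in granule-low and 63.3 and 96.2 TPM in granule-high cells. Fosl1 thus had the opposite order of means to Fos, Fosb and Fosl2.

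Heat shock genes, which tissue handling can also induce, summed to a mean of 2306 and 3255 TPM in granule-low and 1659 and 2128 TPM in granule-high cells, and 1 of 7 tested, Hspa8 (0.66), was higher in granule-low cells. Their summed mean was 2180 and 2670 TPM in Il1b-positive and 1672 and 2273 TPM in Il1b-negative cells, and 1 of 7, Dnaja1 (0.89), was higher. The share of all genes tested that was higher was 7.36% in granule-low and 12.2% in Il1b-positive cells, so 1 of 7 is near that share. The rho of the heat shock score was 0.20 with Junb and 0.17 with Fos. All cells had been through the same enzymatic digestion, so AP-1 transcript made in the animal and transcript made during isolation cannot be told apart. Monocyte markers, of which 5 to 7 of 10 were above 0 in any cell of a class, summed to means of 1159 and 748 TPM in granule-low and 2963 and 2708 TPM in granule-high cells. The median cell of each class had only 1 of these markers, and Ly6c2 alone was above 0 in 256 of the 326 cells. At least 3 of the markers were above 0 in 2 and 6 granule-low and in 2 and 1 granule-high cells, so the 2 measures differ in direction. B cell markers ran in the same direction as the AP-1 genes. They summed to means of 147 and 208 TPM in granule-low against 4.33 and 0.112 TPM in granule-high cells, and to 87.7 and 116 TPM in Il1b-positive against 0 and 0.0227 TPM in Il1b-negative cells. Their median was 0 in every class, and at least 3 of the 5 markers were above 0 in 1 granule-low cell and 1 Il1b-positive cell of each replicate. T or NK cell markers summed to means of 124 and 20.02 TPM in granule-low against 2.96 and 11.5 TPM in granule-high cells, also with medians of 0. The part of these markers in the AP-1 values was not tested.

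Between neutrophils and the other sorted cells, Fos and Junb stood at like levels and Jun and Atf3 were lower in neutrophils. In this comparison 747 of 4584 genes (16.3%) were lower and 408 (8.9%) higher in neutrophils, 25.2% in either direction. Beside so large a share, 2 lower members of the 6 tested say nothing about the family as a whole. Atf3 was above 0 in 18 of 23 and 11 of 17 other cells, with means of 739 and 597 TPM, against 292 and 191 TPM in neutrophils, a difference of -1.49 (SE 0.30, limma adjusted p = 0.000669; lower on 4 of 4 plates). The difference lay in frequency, since the positive neutrophils had a higher median (1481 and 1472 TPM) than the positive other cells (618 and 633 TPM). With neutrophils defined at 50000 TPM the Atf3 difference was -2.70 (limma adjusted p = 0.000413), and Atf3 was then above 0 in 7.97% of neutrophils with a mean of 102 TPM, in place of 12.03% and 242 TPM.

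Jun was above 0 in 19 of 23 other cells of replicate 1 and 5 of 17 of replicate 2, with means of 619 and 84.0 TPM, against 24.0 and 30.2 TPM in neutrophils. The difference was -3.04 (SE 0.76, limma adjusted p = 0.0217), and by plate it was -4.80, -4.53, -1.36 and -1.55. Its size thus came mostly from replicate 1, and without that replicate it was -1.46 (limma adjusted p = 0.304). The call was also lost with a pseudocount of 0.1 (0.0512), without the replicate block (0.080), without proliferating cells (0.0858) and with no filter on low values (0.308). The other cells of the 2 replicates were unlike in other ways: 10 of 23 and 2 of 17 had at least 5 proliferation genes above 0, B cell markers summed to a mean of 1137 and 0 TPM, and T or NK cell markers to 110 and 1334 TPM. Their part in the Jun values was not tested. Atf3 missed the threshold without replicate 1 (-1.66, limma adjusted p = 0.0716), without replicate 2 (-1.42, 0.0616) and with no filter (0.215).

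The other 4 members tested did not pass. Fos averaged 3680 and 4149 TPM in the other cells, and the difference was 0.30 (SE 0.13, limma adjusted p = 0.107). Junb was above 0 in all 40 other cells with means of 4655 and 6065 TPM, a difference of 0.07 (SE 0.13, limma adjusted p = 0.743) whose sign varied over plates. Fosl2 averaged 107 and 52.9 TPM in the other cells (1.06, SE 0.47, limma adjusted p = 0.105), and Fosb 37.7 and 28.5 TPM (-0.07, SE 0.68, limma adjusted p = 0.954). Fosb was nevertheless above 0 in 60.9% and 52.9% of the other cells against 25.2% and 25.8% of neutrophils, beside a median of 3146 and 2726 genes detected in the other cells and 1713 and 1531 in neutrophils. Rescaling without granule genes changed the split of all calls to 476 higher and 408 lower, moved the median of all genes from -0.23 to 0.14, turned the Fosb difference to 0.08 and brought Fos past the threshold (0.57, limma adjusted p = 0.0101). Heat shock genes were lower in neutrophils for 5 of 7 tested, summing to a mean of 1971 and 2508 TPM against 6887 and 6460 TPM. Of the other immediate early genes, Egr1 (-2.00) and Nr4a1 (-1.52) were lower in neutrophils and Gadd45b (1.24) was higher. Jund and Batf, not tested, were above 0 in 3 of the 40 other cells each.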

How the data were processed

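The authors deposited TPM values, 1 per gene and cell. RSEM and mm10 (GRCm38) are named in the submitters' processing notes; for the aligner, annotation and versions nothing is given in the sources used here. Every cell sums to 1000000, so depth is unknown and precision per cell cannot be given; intervals and limits on shares of cells (95%, exact binomial; 3 cells for a count of 0) cover counting error only. The labels list 384 cells on 4 plates of 96; 58 were not analysed here. Members and gene lists were chosen with earlier results of these data known.

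Cell classes were averaged per replicate, and log2(mean TPM + 1), a pseudocount of 1, was compared with limma 3.58.1 (R 4.3.3; trend, robust) with the replicate as a block, which pairs classes of the same replicate. Genes with mean TPM of at least 5 and above 0 in at least 10% of cells entered. Adjusted p is Benjamini-Hochberg over all genes tested, threshold 0.05. With 2 replicates and 1 residual degree of freedom the fit leans on the variance pooled over genes. The labels do not say whether the replicates are separate mice, so the spread may be technical. Differences on this scale understate low genes. Score genes, Il1b, or S100a8 and S100a9 were left out of their own comparison. Proliferating cells are those with at least 5 of the listed proliferation genes above 0. No doublet caller was run. All 8 members were named throughout, and from each other list up to 4 genes with the smallest p. The genes most like Jund are not reported here. The fit was tested on simulated data. Python 3.11.15, pandas 2.3.3 and scipy 1.17.1 were used.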

Additional observations from a re-analysis of the deposited data

How the results depend on the processing

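Of 222 refitted differences of single members, 186 kept direction and side of the threshold, 27 lost the call, 2 gained it and 7 changed sign. The sign changes all concern 2 uncalled genes between neutrophils and other cells. Junb became -0.75 with the mean of log2 values, -0.0663 without replicate 1 (0.1718 without replicate 2), -0.16 at 50000 TPM and -0.18 without proliferating cells, and Fosb became 0.0433 with averages per plate, 0.73 without replicate 1 (-0.6463 without replicate 2) and 0.0792 with rescaled TPM.

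With no filter on low values limma called 0 genes in the granule comparison (377 with it), 4 in the Il1b comparison (668) and 0 against the other cells (1155), with 0, 0 and 0 members in place of 5, 5 and 2 (the counts of 5 include Fosb and Atf3, whose direction the filter fixed); many more genes enter those fits. Without the filter 1109 genes of the granule comparison and 2313 against the other cells had an unadjusted p under 0.05. The mean of log2 values called 789, 1503 and 2093 genes (341 higher and 1162 lower in the Il1b comparison). Leaving out 1 replicate, with plates as units, called 6 to 251, 107 to 196 and 364 to 505 genes, and 1 to 3 members in the granule comparison and 0 to 1 against the other cells; fewer samples enter those fits. The granule comparison called 957 genes with an unadjusted score and 647 with 2 classes, the Il1b comparison 212 with strata of genes detected, and the comparison with other cells 371 without proliferating cells. Against the other cells 1 member was called with a pseudocount of 0.1, 1 with no replicate block and 1 without proliferating cells, where Jun lost its call; the cause was not tested. The replicate block changed no other member's call. At 50000 TPM 4 members entered the Il1b comparison and all 4 were called, beside 508 higher and 203 lower genes of 4004 tested. Entry through the positive class alone was not checked for this setting, so the count of 4 is a description. Depth is not kept by TPM, so for Jun, Jund and Batf a cell at 0 cannot be told from a cell too shallow to show the transcript.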
